A study of Mus musculus with 10 samples.

Results

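The genes of CDP-diacylglycerol, cardiolipin and mitochondrial phosphatidylethanolamine synthesis followed here in mouse cortex were Cds1, Cds2, Tamm41, Pgs1, Ptpmt1, Crls1, Taz, Prelid1, Triap1 and Pisd. They were taken by gene name and make up 10 of the 24972 genes in the deposited gene tables and 19 of the 42482 RefSeq transcripts in the transcript tables. Cortical total RNA was sequenced for 5 Atad3 nKO mice and 5 control littermates, all male, of the C57BL/6 strain and aged 2.5 months, which were perfused with PBS before dissection. What nKO stands for is not written in the labels, and neither is a Cre line, a deleted exon or an allele of the controls. Each library was 1 animal, and the libraries held 14812639 to 19097795 estimated counts in nKO and 16768382 to 24161361 in controls.

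Cardiolipin is the signature phospholipid of the mitochondrial inner membrane, where it binds respiratory chain complexes and shapes the cristae. Its synthesis begins with phosphatidic acid, which is carried across the intermembrane space and converted to CDP-diacylglycerol, then through phosphatidylglycerol phosphate and phosphatidylglycerol to cardiolipin, whose acyl chains are remodelled afterwards. CDP-diacylglycerol is also made in the endoplasmic reticulum, where it feeds phosphatidylinositol synthesis, a pathway that neurons use heavily for signalling. The ATPase encoded by Atad3a, the gene of the ATAD3 family in mice, is anchored in the same inner membrane.

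At the level of whole genes, no member passed the 5% threshold between the genotypes. The nearest to it was Triap1, a partner of the phosphatidic acid carrier, at 26.4 ± 0.50 TPM in nKO and 31.2 ± 4.72 TPM in controls (SD, n = 5 each). A difference appeared inside Cds2, the more abundant CDP-diacylglycerol synthase: a transcript with a downstream first exon made up 15.9% ± 12.3 of the gene's TPM in nKO and 2.01% ± 1.76 in controls (SD, n = 5 each). In a test of transcript usage over the 4732 genes with at least 2 tested transcripts, Cds2 was the only gene called. However, a usage test that takes the spread of each transcript separately did not call it.

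The targeted gene checks the genotype labels. Atad3a had 15.2, 15.3, 18.8, 13.8 and 14.8 TPM in the nKO libraries, against 28.2, 30.8, 33.5, 29.5 and 29.0 TPM in the control libraries. The groups did not overlap, and the log2 fold change was -1.04 (SE 0.12, edgeR's quasi-likelihood test, adjusted p = 0.00634). Of 14378 genes tested, 2 passed the threshold, Atad3a and Fam155a, both lower in nKO, which is 0.0139% of genes, and 0 were higher. The first principal component held 33.6% of the variance, with control 1 and nKO 4 at its opposite ends. Across genes, log2 fold changes were higher in longer genes (Spearman's rho 0.30, a description over 14378 genes that are not independent), and the part of length in the results below was not tested.

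By mean TPM, a measure scaled per length, the most abundant of the 10 genes stood 18.3 times above the least abundant in nKO and 19.9 times in controls. In nKO the order of mean TPM was Cds2, Prelid1, Cds1, Pisd, Pgs1, Ptpmt1, Crls1, Taz, Triap1 and Tamm41. In controls Pisd stood above Cds1 and Ptpmt1 above Pgs1, and the order was otherwise the same. The ranges over libraries overlapped between each neighbouring pair of the middle block, Cds1, Pisd, Pgs1, Ptpmt1 and Crls1, in both genotypes. Neighbours there were not separated by range, although Cds1 was above Pisd in each of the 5 nKO libraries. Genes further apart were in part separated in nKO. The lowest Cds1 value, 84.3 TPM, was above the highest of Pgs1 (81.2), Ptpmt1 (80.8) and Crls1 (72.3). The lowest Pisd value, 72.8 TPM, was also above the highest of Crls1. Cds2, Prelid1 and Tamm41 were separated from their neighbours in both genotypes, while the ranges of Taz and Triap1 overlapped in controls.

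**Figure D1:**
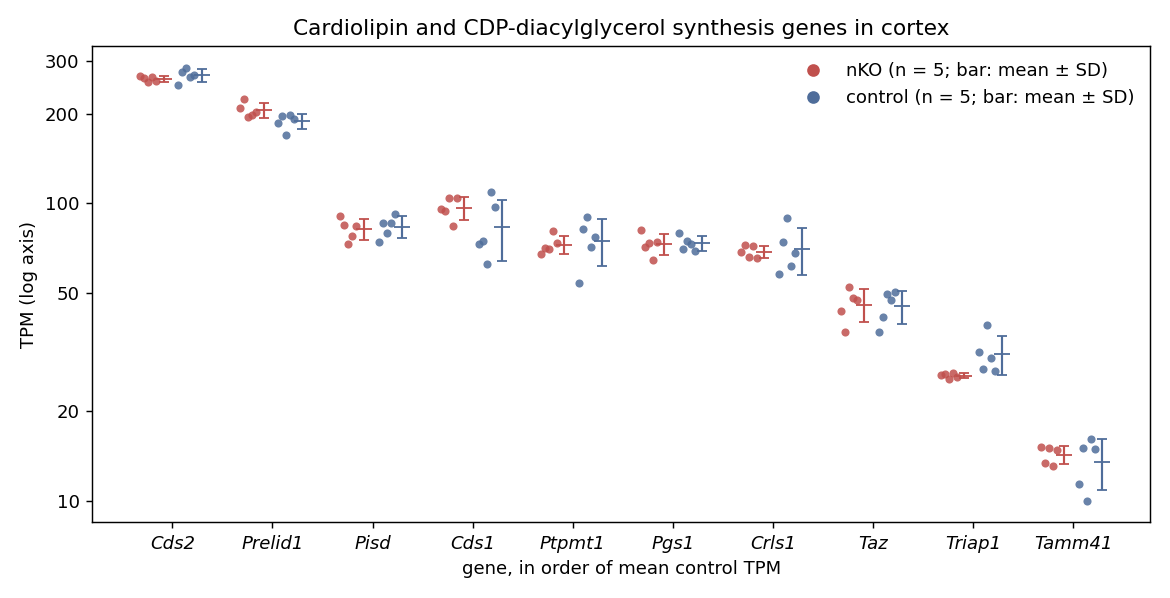
TPM of the 10 genes on a log axis, with 1 point per library, nKO left of control, and the mean ± SD beside the points. Only the points of Triap1 are separated by genotype, at 25.7 to 26.9 TPM in nKO and 27.4 to 39.0 TPM in controls.

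The CDP-diacylglycerol synthases were described first. Cds1 (NCBI gene 74596; mm10 chromosome 5, 101765093 to 101823858, plus strand) encodes a synthase of the endoplasmic reticulum and had 96.0, 94.0, 104, 84.3 and 104 TPM in nKO, against 73.3, 74.5, 62.6, 109 and 97.0 TPM in controls. The nKO values lay inside the control range, which was the wider, and the log2 fold change was 0.17 (95% interval -0.12 to 0.46, SE 0.13, adjusted p = 0.86). Tamm41 (NCBI gene 68971; chromosome 6, 115004381 to 115037929, minus strand) encodes the synthase of the mitochondrial inner membrane that supplies cardiolipin, and was the least abundant member. It had 15.2, 13.4, 15.1, 13.1 and 14.8 TPM in nKO, against 11.5, 15.1, 10.04, 16.1 and 14.99 TPM in controls. The nKO libraries again lay within the control range, with a log2 fold change of 0.04 (95% interval -0.28 to 0.36, SE 0.15, adjusted p = 0.98).

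Cds2 (NCBI gene 110911; chromosome 2, 132253338 to 132312050, plus strand) encodes the other synthase of the endoplasmic reticulum. The whole gene had 269, 264, 255, 266 and 258 TPM in nKO, against 251, 275, 286, 265 and 269 TPM in controls. These ranges overlapped, whereas in CPM, which is not scaled by length, Cds2 lay at 771 to 821 in nKO and 833 to 882 in controls, without overlap. The log2 fold change was -0.10 (95% interval -0.22 to 0.01, SE 0.05, adjusted p = 0.82). Cds2 levels per length were 2.73 ± 0.29 times those of Cds1 in nKO and 3.38 ± 0.83 times in controls (SD, n = 5 each), with overlapping ranges.

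Cds2 is listed with 3 RefSeq transcripts. In the GENCODE M21 annotation of mm10, NM_138651 and NM_001291039 both have 13 exons and differ in the first one alone. The first exon of NM_138651 has 350 bases, 54 of them coding. That of NM_001291039 lies 22791 bases downstream, inside the first intron of NM_138651, and has 27 bases, 3 of them coding. The following 8046 bases are identical. The coding parts have 444 codons in NM_138651 and 427 in NM_001291039, a net difference of 17. In NM_001291039 an ATG from its own first exon stands in place of the 54 first-exon coding bases of NM_138651, and the reading frame is kept. NM_001291040 shares the first exon of NM_138651, ends in a longer version of an internal exon and has 129 codons.

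**Figure D2:**
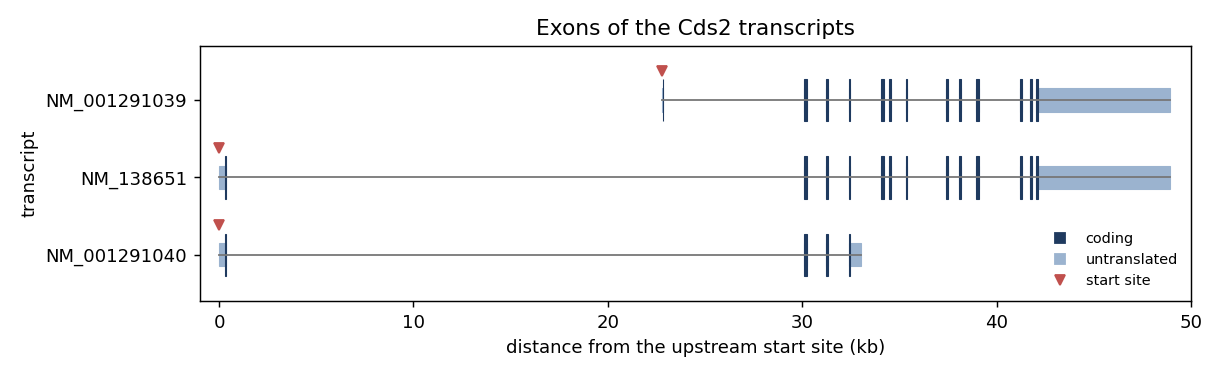
Exons of the 3 Cds2 transcripts against the distance in kb from the upstream start site, with coding parts tall and dark, untranslated parts low and light, and a triangle at each start. The transcripts NM_138651 and NM_001291039 part only at their first exons, whose starts are 22791 bases apart.

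The beginning of each full-length coding sequence shows the difference between the 2 transcripts. Capitals mark the coding bases of the first exon (chr2:132263444-132263497 for NM_138651 and chr2:132285963-132285965 for NM_001291039) and lower case the first 30 bases of the shared second exon (chr2:132293245-132293274), mm10, plus strand, from GENCODE M21.
Cds2 NM_138651: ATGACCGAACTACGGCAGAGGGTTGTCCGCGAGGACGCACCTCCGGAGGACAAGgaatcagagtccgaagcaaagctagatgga
Cds2 NM_001291039: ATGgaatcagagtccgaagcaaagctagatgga

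Because the 2 transcripts start at separate sites, the 250 bases before each start are shown as well, from the RefSeq promoter table of GRCm38.p6, plus strand, with CG dinucleotides in capitals. The first lies at chr2:132262898-132263147 and the second at chr2:132285689-132285938.
Cds2 upstream start: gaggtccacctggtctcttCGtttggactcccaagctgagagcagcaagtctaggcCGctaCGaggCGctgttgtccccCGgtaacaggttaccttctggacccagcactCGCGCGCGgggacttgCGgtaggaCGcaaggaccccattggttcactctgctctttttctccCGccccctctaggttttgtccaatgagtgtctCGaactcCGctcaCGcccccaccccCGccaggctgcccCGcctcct
Cds2 downstream start: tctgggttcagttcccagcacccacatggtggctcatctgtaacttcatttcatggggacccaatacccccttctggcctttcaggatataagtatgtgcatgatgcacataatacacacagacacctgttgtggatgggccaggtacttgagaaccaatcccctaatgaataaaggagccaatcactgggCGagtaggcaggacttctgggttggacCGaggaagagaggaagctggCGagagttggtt

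The upstream window holds 17 CG dinucleotides and 62.4% G or C, and 23.5% of 32851 promoter windows of this length hold as many CG or more. The downstream window holds 3 CG and 50.4% G or C, and 71.0% of the windows hold as many or more. The median over all windows was 6 CG and 52.4% G or C. The motif TATAAA, searched on both strands, was in neither window nor in any of the 12 windows of the 9 members in that table, and it was in 12.4% of all windows. These counts describe the letters of the windows only.

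NM_001291039, the transcript with the downstream first exon, had 37.1, 12.9, 14.2, 92.1 and 53.4 TPM in the nKO libraries, against 3.11, 3.14, 2.12, 13.4 and 5.01 TPM in the control libraries. Every nKO library was above 4 of the 5 controls, and the groups touched where the lowest nKO library, at 12.9 TPM, stood below the highest control, at 13.4 TPM. The spread inside nKO was wide, with 41.9 ± 32.8 TPM in nKO and 5.36 ± 4.63 TPM in controls (SD, n = 5 each). NM_138651, the main transcript, had 224, 244, 231, 164 and 199 TPM in nKO, against 241, 269, 278, 246 and 259 TPM in controls. The library with the most NM_001291039, nKO 4, had the least NM_138651. NM_001291040 had 5.39 to 9.76 TPM in nKO and 3.22 to 6.78 TPM in controls, with overlap.

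**Figure D3:**
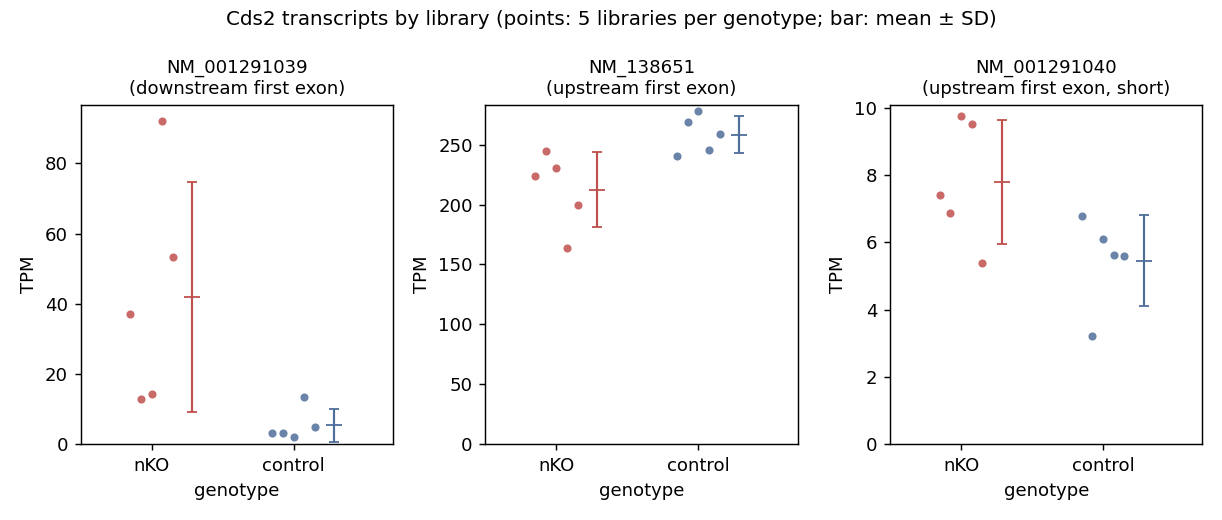
TPM of the 3 Cds2 transcripts, with 1 point per library, nKO left of control, and the mean ± SD beside the points; each panel has its own linear axis starting at 0. NM_001291039 sits between 12.9 and 92.1 TPM in nKO and between 2.12 and 13.4 TPM in controls, while NM_138651 sits at 164 to 244 TPM in nKO and 241 to 278 TPM in controls.

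As a share of the Cds2 TPM in the same library, NM_001291039 made up 13.8%, 4.88%, 5.56%, 34.7% and 20.7% in nKO, against 1.24%, 1.14%, 0.74%, 5.07% and 1.86% in controls. NM_138651 made up 83.4%, 92.5%, 90.6%, 61.7% and 77.2% in nKO, against 96.1%, 97.7%, 97.1%, 92.8% and 96.1% in controls, and here the groups did not overlap. The mean share of NM_001291039 was 13.9 percentage points higher in nKO (exact two-sided permutation test, unadjusted p = 0.0159), and that of NM_138651 was 14.8 points lower (unadjusted p = 0.00794 in the same exact test, the smallest that 5 against 5 allows). These shares are 2 of 11 tested over the 5 members with several transcripts, they come from the same libraries as the fits below, and Cds2 was known from earlier results of these data.

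Among 4732 genes with at least 2 tested transcripts, edgeR's test of transcript usage called 1 gene, Cds2 (Simes-adjusted p = 0.00422), which is 0.0211% of genes. The call was kept with each of the 10 libraries left out in turn, at adjusted p-values of 9.29e-05 to 0.0423, and was lost when control 1 and nKO 4 were left out together (adjusted p = 0.111). That test shares 1 estimate of the spread over the transcripts of a gene. With the spread taken per transcript, in limma on the log2 ratio of each transcript to the rest of its gene, Cds2 was not called (difference 3.20 for NM_001291039, adjusted p = 0.98), nor was any other of 12747 transcripts.

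The transcripts were also tested one by one. In the transcript table NM_001291039 had a log2 fold change of 2.897 (95% interval 1.34 to 4.46, SE 0.70, edgeR adjusted p = 0.99998), which ranked 24 of 22343 by p-value. NM_138651 had -0.34 (95% interval -0.58 to -0.09, SE 0.11, adjusted p = 0.99998) and NM_001291040 had 0.40 (SE 0.30). edgeR called 0 of the 22343 transcripts, 804 of which (3.6%) had an unadjusted p under 0.05. The Atad3a transcript NM_179203 was not called either, at a log2 fold change of -1.05 (SE 0.13, edgeR adjusted p = 0.136). This test thus missed the targeted gene, and an adjusted p above the threshold here does not show that a transcript is unchanged. The Wald test of DESeq2 called NM_001291039 (adjusted p = 0.00697) as 1 of 137 among 30559 transcripts, or 0.448%.

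The sequences above show how little separates these estimates. Of the stretches of 31 bases in NM_001291039, 26 occur in neither other Cds2 transcript, or 0.33% of its stretches. The estimated counts were 1882, 689, 742, 5146 and 2438 reads for NM_001291039 in nKO, against 179, 166, 162, 735 and 304 reads in controls, and the uncertainty of dividing reads between the transcripts was not part of the tests.

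The next steps lead to cardiolipin itself. Pgs1 (NCBI gene 74451; chromosome 11, 117986297 to 118024011, plus strand) makes phosphatidylglycerol phosphate from CDP-diacylglycerol and had 81.2, 71.2, 73.3, 64.8 and 74.0 TPM in nKO, against 79.4, 70.5, 74.9, 73.1 and 69.0 TPM in controls. The ranges overlapped almost wholly, and the log2 fold change was -0.14 (95% interval -0.46 to 0.18, SE 0.15, adjusted p = 0.88). In CPM, control 1 stood at 69.9 and the other controls at 42.6 to 47.2. Without control 1 the sign of the Pgs1 estimate turned, at 0.01, and without control 1 and nKO 4 the estimate was 0.09. Its transcript NM_133757 held at least 72.3% of the TPM in each nKO library and at least 81.5% in each control library, with a log2 fold change of -0.12 (SE 0.19). The other, NR_151726, had 7.54, 19.7, 0, 0 and 0 TPM in nKO, against 5.06, 13.0, 10.4, 0 and 7.26 TPM in controls. It was listed at 0 in 4 of 10 libraries, and its log2 fold change of -0.39 (SE 1.71, edgeR adjusted p = 0.99998) ran between -1.94 and -0.06 with 1 library left out.

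Ptpmt1 (NCBI gene 66461; chromosome 2, 90910713 to 90918050, minus strand) encodes the mitochondrial phosphatase that yields phosphatidylglycerol. It had 67.4, 71.0, 70.1, 80.8 and 73.7 TPM in nKO, against 54.1, 81.7, 90.3, 71.6 and 77.3 TPM in controls, and the nKO values lay inside the control range. The log2 fold change was -0.11 (95% interval -0.32 to 0.11, SE 0.10, adjusted p = 0.87).

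Crls1 (NCBI gene 66586; chromosome 2, 132846650 to 132866786, plus strand) encodes cardiolipin synthase, which joins phosphatidylglycerol to a second CDP-diacylglycerol. Its levels were 68.8, 72.3, 65.9, 71.9 and 65.7 TPM in nKO, against 57.8, 74.0, 89.4, 61.4 and 68.0 TPM in controls. The control values spread around the nKO values, and the log2 fold change was -0.05 (95% interval -0.29 to 0.18, SE 0.11, adjusted p = 0.96). The transcript NM_001024385 carried at least 94.98% of the TPM in each nKO library and all of it in every control. The other, NM_025646, was listed at 0 in 8 of 10 libraries and was not tested.

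Taz (NCBI gene 66826; chromosome X, 74281900 to 74295319, plus strand) encodes tafazzin, the transacylase that remodels cardiolipin and is mutated in human Barth syndrome. It had 43.5, 37.0, 52.5, 48.2 and 47.5 TPM in nKO, against 36.8, 41.4, 49.4, 47.4 and 50.4 TPM in controls, with nearly the same range. The log2 fold change was -0.04 (95% interval -0.25 to 0.18, SE 0.10, adjusted p = 0.97). Taz is listed with 5 transcripts, of which NM_181516 held most, at 56.3% to 72.8% of the TPM in nKO and 57.3% to 78.6% in controls.

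The transcript NM_001173547 of Taz had 5.62, 1.25, 4.41, 1.26 and 1.10 TPM in nKO, against 5.16, 7.18, 3.89, 5.79 and 10.7 TPM in controls. Of the nKO libraries 3 were below every control and 2 were among them, and the log2 fold change was -1.32 (95% interval -2.54 to -0.10, SE 0.55, edgeR adjusted p = 0.99998). Its share of the Taz TPM was 5.92% ± 4.63 in nKO and 14.6% ± 5.10 in controls (SD, n = 5 each; exact two-sided permutation test, unadjusted p = 0.0397). The usage test did not call Taz (Simes-adjusted p = 0.99997). NM_001242616 had a log2 fold change of 0.50 (SE 0.87). NM_001242615 and NM_001290738 were at 0 in 7 and 6 of the 10 libraries and were not tested.

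Phosphatidic acid reaches the inner membrane through a carrier of PRELID1 and TRIAP1, whose yeast counterparts are Ups1 and Mdm35. Prelid1 (NCBI gene 66494; chromosome 13, 55322055 to 55325272, plus strand), the lipid-binding subunit, was the second most abundant member. It had 209, 225, 195, 198 and 203 TPM in nKO, against 187, 197, 170, 197 and 192 TPM in controls. The lowest nKO library lay within the control range and the other 4 above it, and in CPM the means were 58.7 ± 7.04 in nKO and 58.2 ± 8.76 in controls (SD, n = 5 each). The log2 fold change was 0.01 (95% interval -0.23 to 0.26, SE 0.11, adjusted p = 0.99).

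Triap1 (NCBI gene 69076; chromosome 5, 115341231 to 115343553, plus strand), the small partner that stabilises PRELID1, had 26.5, 26.8, 25.7, 26.9 and 26.1 TPM in nKO, against 31.6, 27.7, 39.0, 30.1 and 27.4 TPM in controls. Every nKO library was below every control library, by a margin that was small at the lowest 2 controls, and the spread in nKO was narrow. In CPM it averaged 9.47 ± 0.22 in nKO and 11.4 ± 1.73 in controls (SD, n = 5 each). The log2 fold change was -0.27 (95% interval -0.52 to -0.02, SE 0.11, edgeR unadjusted p = 0.0347, adjusted p = 0.82), so Triap1 did not pass the threshold. At 1049 bases its transcript is shorter than the median tested gene, at 2994 bases. The estimate with effective length offsets was -0.30. Those offsets adjust for differences in the effective length of a gene between libraries, and not for the trend with length across genes.

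Pisd (NCBI gene 320951; chromosome 5, 32736301 to 32785642, minus strand) encodes the inner membrane enzyme that makes phosphatidylethanolamine from phosphatidylserine. It had 90.5, 84.3, 72.8, 77.9 and 84.2 TPM in nKO, against 74.3, 86.0, 79.4, 85.7 and 92.2 TPM in controls. The ranges nearly coincided, and the log2 fold change was -0.11 (95% interval -0.30 to 0.09, SE 0.09, adjusted p = 0.86). Of its 2 transcripts NM_001347332 made up 11.9% to 18.0% of the TPM in nKO and 9.30% to 16.1% in controls. The main one, NM_177298, had 61.3 to 79.8 TPM in nKO and 64.5 to 82.4 TPM in controls, with a log2 fold change of -0.15 (SE 0.11).

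Pisd shares sequence with other genes, and how many of its reads could not be told apart was not measured. Of the stretches of 31 bases, 52.58% in NM_177298 and 36.85% in NM_001347332 also occur in other genes. Those genes are Gm20671, Gm43695 and the pseudogenes Pisd-ps1 and Pisd-ps2. Gm20671 and Gm43695 overlap exons of Pisd on the same strand, and neither is among the deposited genes. In aligned stretches of 897 and 881 bases the Pisd transcript was 95.1% identical to Pisd-ps1 and 96.6% to Pisd-ps2. The following 60 coding bases of Pisd (chr5:32739314-32739373, minus strand) are shown beside Pisd-ps1 (chr11:3128929-3128988, plus strand) and Pisd-ps2 (chr17:3079532-3079591, minus strand), mm10, with capitals at the bases that differ from Pisd.
Pisd: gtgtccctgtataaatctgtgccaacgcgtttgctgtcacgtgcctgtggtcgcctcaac
Pisd-ps1: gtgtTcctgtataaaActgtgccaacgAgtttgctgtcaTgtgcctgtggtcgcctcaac
Pisd-ps2: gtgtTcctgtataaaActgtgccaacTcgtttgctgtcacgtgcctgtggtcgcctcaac

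Pisd-ps1 was listed at 129 ± 23.5 TPM in nKO and 129 ± 32.2 TPM in controls (SD, n = 5 each), above Pisd itself. Pisd-ps2 was listed at 29.6 ± 5.19 TPM in nKO and 28.3 ± 4.15 TPM in controls (SD, n = 5 each). With the counts of the 3 genes summed, so that reads moved between them do not matter, the log2 fold change was -0.07 (95% interval -0.37 to 0.24, SE 0.14, edgeR adjusted p = 0.96).

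Over the 10 genes, 3 estimates were above 0 and 7 below, with a median log2 fold change of -0.08, against -0.01 over all tested genes. The count passing the threshold was 0 of 10, against 0.0139% of all genes. An unadjusted p under 0.05 was reached by 1 of 10, Triap1, against 5.65% of all genes, and 2 of 10, Triap1 and Cds2, did not overlap in CPM, against 1.38%. All 10 intervals lay within a 2-fold change in either direction, against 94.9% of all tested genes. Of the 19 transcripts 16 passed the count filter, with 7 estimates above 0 and 9 below. The single transcripts of Cds1 (NM_173370), Ptpmt1 (NM_025576), Tamm41 (NM_026894), Prelid1 (NM_025596) and Triap1 (NM_026933) hold the whole TPM of their genes. An unadjusted p under 0.05 was reached by 4 of the 16, NM_001291039, NM_138651, NM_001173547 and the Triap1 transcript, against 3.6% of all transcripts, and 2 of 16 did not overlap in CPM, against 0.953%. NM_001291039 and NM_138651 divide the reads of Cds2 between them, so these 2 are not separate results.

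**Figure D4:**
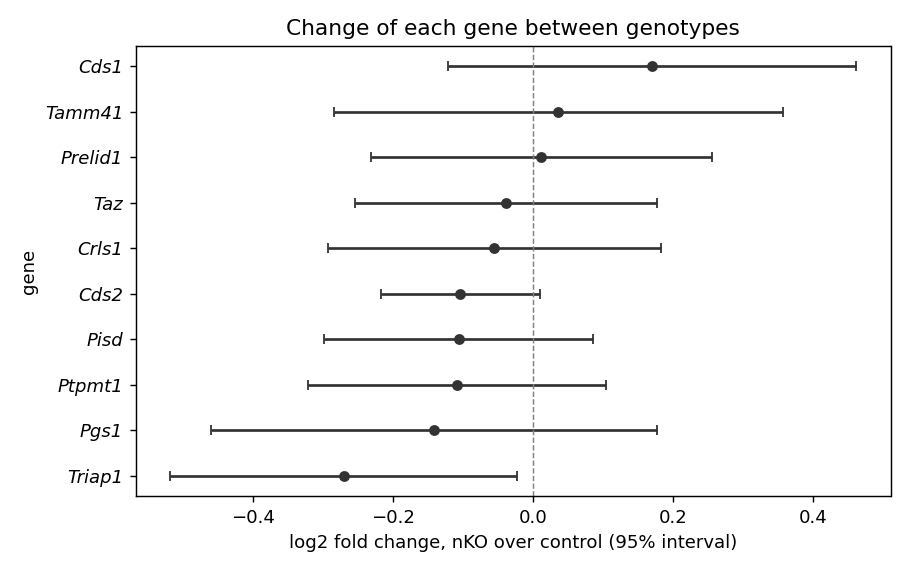
Log2 fold change of each gene, nKO over control, with its 95% interval, and a dashed line at no change. The interval of Triap1, -0.52 to -0.02, is the only one that leaves out 0, and its adjusted p is 0.82.

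Some members share exon sequence with genes on the other strand that are also in the deposited tables: Ptpmt1 with Kbtbd4, Pgs1 with Dnah17, and Prelid1 with Mxd3 and Rab24. The library kit keeps the strand, but whether the counting used it is not stated in the sources at hand, so these 3 levels are uncertain to that extent.

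Genes around the pathway were taken from lists of related steps. Of 13 tested genes that make phosphatidic acid or convert it to diacylglycerol, 7 were above 0 and 6 below with 0 called, and the smallest p-values belonged to Lpin1 (log2 fold change 0.17, SE 0.10), Agpat1 (0.23, SE 0.22) and Lpin3 (-0.27, SE 0.31). Agpat1 is an acyltransferase that makes phosphatidic acid, whereas Lpin1 and Lpin3 are phosphatases that use it up. Of 21 genes of the phosphatidylinositol branch, which uses CDP-diacylglycerol from the endoplasmic reticulum, 8 were above 0 and 13 below with 0 called. There Pitpnc1, a phosphatidylinositol transfer protein, averaged 89.6 ± 6.55 CPM in nKO and 72.4 ± 11.9 CPM in controls (SD, n = 5 each), with a log2 fold change of 0.31 (SE 0.11, edgeR adjusted p = 0.82). The next were the kinase Pi4k2a (-0.16, SE 0.10) and Pitpnm1 (-0.28, SE 0.23).

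Of 15 genes of cardiolipin remodelling and turnover, 7 were above 0 and 8 below with 0 called, led by the prohibitin Phb (log2 fold change -0.17, SE 0.10), the acyltransferase Lclat1 (0.30, SE 0.18) and Hadha (-0.09, SE 0.06). Of 14 genes of lipid transfer at mitochondria, 7 were above 0 and 7 below with 0 called, led by the bridge protein Vps13c (0.16, SE 0.08), Pdzd8 (0.11, SE 0.07) and Stard10 (-0.23, SE 0.17). Of 13 genes of phosphatidylserine, phosphatidylethanolamine and phosphatidylcholine synthesis, 5 were above 0 and 8 below with 0 called.

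In that last list Pcyt2, the CTP-dependent step of the ethanolamine pathway, averaged 29.6 ± 5.95 CPM in nKO and 38.2 ± 6.67 CPM in controls (SD, n = 5 each), with a log2 fold change of -0.37 (SE 0.15, edgeR adjusted p = 0.82). Ptdss2, a phosphatidylserine synthase, averaged 16.5 ± 1.75 CPM in nKO and 21.8 ± 6.40 CPM in controls (SD, n = 5 each), with -0.40 (SE 0.17, adjusted p = 0.82). The more abundant phosphatidylserine synthase, Ptdss1, averaged 88.8 ± 2.72 CPM in nKO and 94.9 ± 8.26 CPM in controls (SD, n = 5 each). Its log2 fold change was -0.10 (SE 0.07, edgeR adjusted p = 0.86). Etnk1 had 0.15 (SE 0.07). The median log2 fold changes of the 5 lists ran between -0.03 and 0.01, against -0.01 for all tested genes.

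The genes whose log2 CPM most resembled that of Triap1 over the 10 libraries, by Pearson's r among 14368 genes, were Tmem242 (0.95), Ercc3 (0.95), Tango2 (0.92), Echdc2 (0.91) and Sod1 (0.91). Those at the other end were Irgm2 (-0.97), Nrip1 (-0.97) and Kcnb2 (-0.96), and Atad3a had 0.70. These are descriptions over libraries that share the genotype groups and depth.

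The tissue label was set against marker genes. Markers of excitatory neurons summed to 1054 to 1223 CPM in nKO and 919 to 1468 CPM in controls, and those of inhibitory neurons to 671 to 735 CPM in nKO and 651 to 710 CPM in controls, with no marker of any list at 0 in all libraries. The summed astrocyte markers, at 5717 to 6529 CPM in nKO and 5206 to 5680 CPM in controls, did not overlap. However, 6 of the 7 genes had an estimate below 0, and 0 were called. The gene above 0 was Slc1a2, which averaged 4383 ± 369 CPM in nKO and 3716 ± 248 CPM in controls (SD). Its log2 fold change was 0.24 (SE 0.07, edgeR adjusted p = 0.82). Slc1a2 held most of the sum in both genotypes, so the higher sum does not describe the list as a whole. Blood cell markers were low, at 6.87 to 20.7 CPM in nKO and 9.16 to 26.1 CPM in controls. The part of cell composition in the results above was not tested, and in bulk tissue fewer cells of a type cannot be told apart from less RNA per cell.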

How the data were processed

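Cortex libraries of 5 Atad3 nKO and 5 control mice, each 1 animal, were grouped by the genotype label. They were made with the TruSeq Stranded Total RNA Gold kit, which removes ribosomal RNA, per the labels' protocols. Salmon, bcl2fastq, DESeq2 and the build mm10 are named, without versions, in the submitters' processing notes. Per the file headers the authors deposited, for each gene and transcript, estimated counts (which need not be whole), TPM and effective lengths. A read that matches several transcripts is divided among them by Salmon, so levels of near-identical transcripts depend on that division.

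Estimated counts were rounded, filtered with filterByExpr (minimum count 10, minimum total 15) and scaled by TMM. CPM are TMM-scaled. Genes and transcripts were tested over the whole tables with the robust quasi-likelihood F test of edgeR 4.0.16 in R 4.3.3, two-sided, with Benjamini-Hochberg adjustment and a threshold of 0.05. Intervals are 95%. The SE of a log2 fold change had a median of 0.12 over tested genes. Transcript usage was tested with diffSpliceDGE (Simes). Shares of a gene's TPM were compared by exact two-sided permutation over all 252 regroupings, unadjusted, since no p is adjusted over the members alone. The gene and transcript fits were checked on simulated counts against set limits. The usage and log2 ratio tests were also run on simulated counts, but no limit was set for them. Alternatives used DESeq2 1.42.0, limma-voom and sva 3.50.0. The alternatives on log2 ratios (limma 3.58.1, pseudocount 0.5), and on usage and transcripts without control 1 and nKO 4, were chosen after seeing the data.

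The members and lists were chosen with earlier results of these data known. The text names all members and their transcripts, Atad3a, and Fam155a as the other gene called. It also names the 3 genes with the smallest p of each related list. For the member with the smallest p, it names the 5 most and 3 least similar genes. Slc1a2 and Ptdss1 were added to these after seeing the data, beside the astrocyte sum and Ptdss2. All nKO libraries carry higher running numbers in the labels than the controls, so an effect of handling order, if the numbers give it, cannot be told apart from genotype. No batch is labelled. Sequences and positions are from GENCODE M21 and RefSeq tables of GRCm38, the assembly of mm10. A deposited table of scores for 22 genes was not used here.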

Additional observations from a re-analysis of the deposited data

Results flagged for a closer look

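In 5 of the 42 sets of 5 libraries examined for a sample far from the others (member TPM and transcript shares, by genotype), 1 library stood apart. The cutoff gives about 1 in 20 for independent sets of normally spread values. All 5 were transcript shares, which depend on each other within a gene and are in part mostly 0. The count can therefore not be set against 1 in 20. The share of NM_001291039 in the Cds2 TPM was 5.07% in control 4, above the other controls. The share of NM_001024385 in the Crls1 TPM was 94.98% in nKO 3, below the other nKO libraries. Among low Taz transcripts, the share of NM_001242615 was 3.23% in control 2 and 0 in the other controls, and the share of NM_001290738 was 7.47% in nKO 3 and 7.38% in control 1.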

How the results depend on the processing

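The count of member genes called stayed at 0 under all 21 alternatives, and Atad3a kept its call in each, at log2 fold changes of -1.15 to -0.97 with 1 library left out. Genes called over the whole table were 2 to 3 with 1 library left out and 5 by DESeq2. Member transcripts called were 1 by DESeq2 (NM_001291039). Members with a usage call were 0 on log2 ratios and 0 without control 1 and nKO 4; the cause was not tested. Without control 1 and nKO 4, Pgs1 was at 0.0908 and its transcript NM_133757 at 0.115 on the log2 scale. With 1 library left out at a time, the log2 fold change ran between -0.108 and 0.0487 for Crls1, -0.103 and 0.0154 for Taz, -0.200 and 0.0102 for Pgs1, -0.0657 and 0.106 for Tamm41, -0.0533 and 0.0991 for Prelid1, and -0.147 and 0.0315 for the Pisd sum. For transcripts it ran between -0.135 and 0.0261 for NM_001024385, -0.206 and 0.0410 for NM_133757, -0.0690 and 0.0917 for NM_026894 (Tamm41), -0.0576 and 0.0875 for NM_025596 (Prelid1), and -0.0223 and 0.148 for NM_001347332. In percentage points the share difference ran between -0.0124 and 1.41 for NM_001242615, -1.36 and 1.47 for NM_001290738, and -2.67 and 2.66 for NM_181516. The share difference of NM_001291039 ran between 9.23, without nKO 4, and 16.7. Log2 fold changes that kept their sign but moved by over 1.5 times were those of Cds1, between 0.08 without control 3 and 0.29 without control 4, Ptpmt1, between -0.16 without control 1 and -0.04 without control 3 (-0.21 without control 1 and nKO 4), and Pisd, at -0.06 without nKO 4 (-0.04 without control 1 and nKO 4). Triap1 ran between -0.32 and -0.18, lowest in size without control 3, and Cds2 between -0.12 and -0.09. Transcript division and 5 animals per genotype limit these values: an adjusted p above the threshold does not show that levels are equal.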
